A study of Mus musculus with 14 samples.

Results

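Neutrophils carry their oldest granules, the primary or azurophil granules, from the promyelocyte stage, when the genes for the granule proteins are transcribed for a short time and then shut off. The proteins stay in the granules while the mRNA is lost, so that mRNA of these genes marks immature granulocyte precursors rather than circulating neutrophils. In the mouse the spleen keeps some blood formation beside the bone marrow, and granulocyte precursors can be found in its red pulp. The 8 genes described here were taken by symbol from a table of 22116 named entries. Mpo encodes myeloperoxidase, the haem enzyme that makes hypochlorous acid. Elane, Prtn3 and Ctsg encode the serine proteases neutrophil elastase, proteinase 3 and cathepsin G. Fcnb encodes ficolin B, a pattern recognition lectin that can start the lectin pathway of complement, and Ms4a3 a membrane protein of granulocyte and monocyte progenitors. Ctsc encodes cathepsin C, the lysosomal dipeptidyl peptidase that trims the granule serine proteases into active enzymes, and Serpinb1a a cytosolic serpin that inhibits elastase, proteinase 3 and cathepsin G.

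Whole spleens of 14 female wild type BALB/c mice, 6 to 8 weeks old and kept free of specific pathogens, were profiled by RNA sequencing. In 3 control mice petrolatum was put on the back and the ears, although the series' design text calls them untreated. The drug imiquimod activates Toll-like receptor 7 and is widely used to provoke psoriasis-like skin inflammation; it was given as 5% cream once a day for 5 days, to the back of 4 mice (imiquimod-dorsal) or to the ear of 4 mice (imiquimod-ear). The last 3 mice (IL-23-ear) received 1 µg of recombinant mouse IL-23 per ear in the skin, in 4 injections over 7 days. The groups thus differ in site, agent and length of treatment, and the labels describe no control with an injection of carrier. The labels call the samples biological replicates of 1 batch, so p-values measure the spread between these spleens. The libraries were made from poly(A) RNA and mark no strand. Libraries held 28354674 to 40289411 counts over named genes, and the members had from 17 counts (Ms4a3, IL-23-ear 1) to 9120 counts (Ctsc, imiquimod-ear 1). Imiquimod-dorsal 4 held 415 CPM of 10 pancreas genes, against at most 16.1 CPM in every other library. Without it the 6 genes that rose in the imiquimod-dorsal group kept log2 fold changes of 3.73 (Ms4a3) to 4.13 (Fcnb) over control, beside 3.66 to 4.14 with it. Red pulp macrophage markers of the spleen summed to 1510 to 2780 CPM and B cell markers to 3450 to 4870 CPM over the libraries. Levels are CPM, the count of a gene as a share of its library's total after TMM scaling (trimmed mean of M values), and are therefore relative to the other RNA of the spleen. In whole tissue, a change in the number of cells that express a gene cannot be told apart from a change in mRNA per cell.

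All 8 members lie on autosomes and are protein-coding in the GRCm39 annotation. Prtn3 (chr10:79710310-79719008, plus strand) and Elane (chr10:79722081-79724051, plus strand) are neighbours with a gap of 3072 bases. The others lie apart from them and from each other. Mpo is at chr11:87684407-87695239 on the plus strand, Ctsg at chr14:56337338-56340031 on the minus strand and Fcnb at chr2:27966389-27974897 on the minus strand. Ms4a3 is at chr19:11606860-11618215 on the minus strand, Ctsc at chr7:87927092-87960096 on the plus strand and Serpinb1a at chr13:33026042-33035224 on the minus strand.

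The sequences shown here are the 250 bases before the annotated start of 5 members, namely 4 of the 6 that moved together and Ctsc, which did not. They come from RefSeq on the older build GRCm38.p6, are written 5′ to 3′ along the gene, and have the motif GAGGAA, the core of PU.1-type ETS binding sites, in capitals on either strand (TTCCTC on the opposite one). PU.1 is a transcription factor needed for myeloid cells. Fcnb and Ms4a3, which also moved, have no GAGGAA in these 250 bases and are not shown. Mpo is read from chr11:87793534-87793783 (plus strand), Elane from chr10:79886062-79886311 (plus), Prtn3 from chr10:79879417-79879666 (plus), Ctsg from chr14:56102575-56102824 (minus) and Ctsc from chr7:88277835-88278084 (plus).
Mpo: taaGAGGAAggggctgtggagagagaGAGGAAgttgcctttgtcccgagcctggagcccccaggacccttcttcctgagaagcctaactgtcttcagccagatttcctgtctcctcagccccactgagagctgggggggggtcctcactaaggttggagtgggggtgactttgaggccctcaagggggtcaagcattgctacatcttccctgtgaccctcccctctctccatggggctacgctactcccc
Elane: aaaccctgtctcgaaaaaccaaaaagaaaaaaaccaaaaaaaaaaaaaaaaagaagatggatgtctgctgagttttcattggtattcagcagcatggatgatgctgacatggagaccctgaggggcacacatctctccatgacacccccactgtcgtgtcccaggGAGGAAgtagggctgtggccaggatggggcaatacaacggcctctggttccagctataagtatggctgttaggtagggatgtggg
Prtn3: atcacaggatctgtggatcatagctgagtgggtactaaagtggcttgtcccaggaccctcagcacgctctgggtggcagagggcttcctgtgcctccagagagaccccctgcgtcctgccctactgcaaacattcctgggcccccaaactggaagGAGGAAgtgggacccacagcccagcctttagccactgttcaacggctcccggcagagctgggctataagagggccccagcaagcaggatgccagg
Ctsg: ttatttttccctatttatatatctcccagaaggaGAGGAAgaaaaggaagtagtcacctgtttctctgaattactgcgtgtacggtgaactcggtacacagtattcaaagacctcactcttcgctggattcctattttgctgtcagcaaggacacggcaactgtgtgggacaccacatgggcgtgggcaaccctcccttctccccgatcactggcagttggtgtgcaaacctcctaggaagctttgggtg
Ctsc: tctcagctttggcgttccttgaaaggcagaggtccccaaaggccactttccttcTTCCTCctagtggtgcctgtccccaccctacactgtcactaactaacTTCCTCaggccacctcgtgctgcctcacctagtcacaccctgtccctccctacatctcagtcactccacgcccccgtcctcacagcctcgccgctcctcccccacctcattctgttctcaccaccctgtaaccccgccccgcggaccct

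RefSeq gave a window of 250 bases before to 50 bases after the start for 7 of the 8 members. GAGGAA was present on 1 of the strands in 6 of these 7 windows, against 28.3% of the 32851 windows of the whole table. Elane and Prtn3 had it 85 and 95 bases before the start, Ctsg 216 bases before, and Mpo at both 247 and 224 bases before. Ctsc had it on the opposite strand at 196 and 149 bases before the start, and Ms4a3 had it 35 bases after. Fcnb was the 1 window without it. The motif TTGCNNAA, of the C/EBP family that drives granulocyte genes, was in 2 of the 7 windows (Fcnb at 2 places and Ms4a3) and in 10.8% of all windows. Its looser form TTNCNNAA, which includes every TTGCNNAA match, was also in 2 windows, against 40.7% of all. AACNGT, a MYB core, was in 3 windows (Mpo, Prtn3 and Ctsg) and in 26.1% of all. TGTGGT of RUNX factors (16.8% of all) and the TATA box letters TATAAA (13.6% of all) were each in 1 window, that of Ctsg. The TATAAA match lay on the opposite strand, 237 bases before the start. Elane, Prtn3 and Fcnb hold TATAAG close to the start, which this exact search did not count. All motifs were searched on both strands. Ctsc thus shared the GAGGAA letters with genes whose levels it did not follow, and a match describes letters only.

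Mpo was the member with the highest level among the 6 genes that moved together. In the control libraries it was at 14.3, 7.07 and 16.3 CPM. In the imiquimod-dorsal libraries it was at 172, 213, 155 and 142 CPM, and in the imiquimod-ear libraries at 105, 39.5, 133 and 96.6 CPM. The IL-23-ear libraries were at 6.76, 28.7 and 7.82 CPM. Every imiquimod library lay above every control and IL-23-ear library, the lowest being imiquimod-ear 3, and IL-23-ear 2 was the 1 IL-23-ear library above all controls.

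The serine proteases separated the groups in the same way. Elane was at 3.92, 1.34 and 4.48 CPM in control, 44.8, 60.0, 48.4 and 41.6 CPM in imiquimod-dorsal, 30.9, 11.5, 40.5 and 28.5 CPM in imiquimod-ear, and 2.01, 8.30 and 2.95 CPM in IL-23-ear spleens. Its neighbour Prtn3 was at 4.05, 2.08 and 5.80 CPM in control, 71.2, 77.2, 68.5 and 57.0 CPM in imiquimod-dorsal, 41.6, 12.4, 47.4 and 33.0 CPM in imiquimod-ear, and 1.77, 8.93 and 2.51 CPM in IL-23-ear spleens. For both genes the imiquimod-dorsal and imiquimod-ear ranges lay apart from each other and from control. Ctsg was lower throughout, at 1.84, 0.992 and 2.69 CPM in control, 28.8, 32.9, 26.5 and 25.3 CPM in imiquimod-dorsal, 17.2, 4.83, 23.1 and 14.5 CPM in imiquimod-ear, and 0.809, 3.88 and 1.34 CPM in IL-23-ear spleens. Its highest imiquimod-ear library remained below its lowest imiquimod-dorsal library.

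Fcnb and Ms4a3 were near 1 CPM in control spleens. Fcnb was at 1.07, 0.736 and 1.35 CPM in control, 13.9, 26.9, 19.2 and 14.8 CPM in imiquimod-dorsal, 9.75, 3.25, 11.8 and 10.4 CPM in imiquimod-ear, and 0.626, 3.94 and 1.09 CPM in IL-23-ear spleens. Ms4a3 was at 1.17, 0.640 and 1.48 CPM in control, 15.9, 16.2, 12.0 and 12.1 CPM in imiquimod-dorsal, 9.06, 3.33, 11.2 and 7.85 CPM in imiquimod-ear, and 0.444, 2.85 and 0.696 CPM in IL-23-ear spleens. Fcnb was the 1 gene of the 6 for which an IL-23-ear library (3.94 CPM) exceeded an imiquimod-ear library (3.25 CPM).

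Ctsc and Serpinb1a were abundant in every group and did not share this order. Ctsc was at 165, 176 and 168 CPM in control, 199, 148, 194 and 221 CPM in imiquimod-dorsal, 241, 253, 196 and 177 CPM in imiquimod-ear, and 183, 195 and 174 CPM in IL-23-ear spleens. Serpinb1a was at 190, 168 and 158 CPM in control, 147, 148, 138 and 162 CPM in imiquimod-dorsal, 140, 127, 141 and 158 CPM in imiquimod-ear, and 184, 176 and 130 CPM in IL-23-ear spleens. The imiquimod-ear range of Ctsc lay above control and that of Serpinb1a just below it, while all other pairs of ranges with control overlapped.

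**Figure D1:**
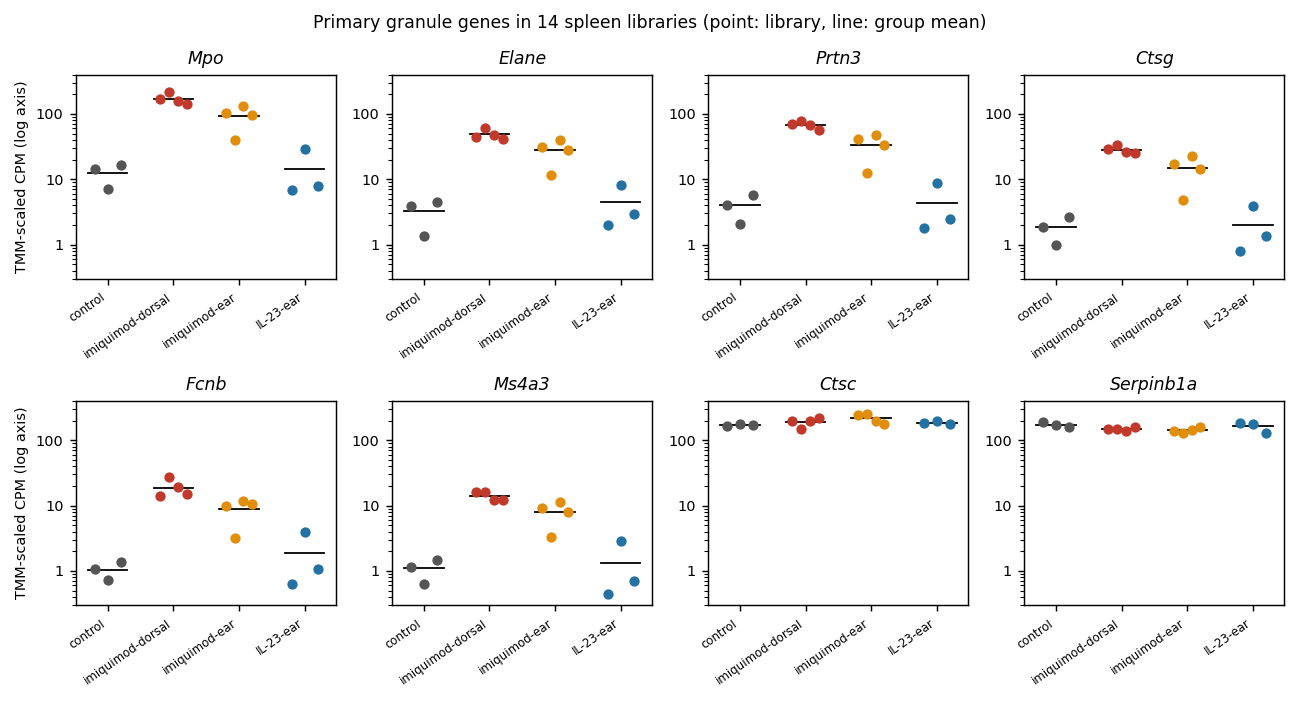
Level of each of the 8 genes in every library, as TMM-scaled CPM on a common log axis, with 1 panel per gene, 1 point per library and a line at the group mean. In 6 panels the imiquimod groups stand above control and IL-23-ear, whereas Ctsc and Serpinb1a run level between 127 and 253 CPM.

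Imiquimod on the back raised 6 of the 8 genes more than 12-fold over control. Elane, which was 3.25 ± 1.67 CPM in control (SD, n = 3) and 48.7 ± 8.05 CPM in imiquimod-dorsal spleens (n = 4), was 14.8 times higher, with a log2 fold change of 3.89 ± 0.59 (SE; edgeR adjusted p = 0.000136). Prtn3 went from 3.98 ± 1.86 to 68.5 ± 8.48 CPM (17.1 times; adjusted p = 0.000167). Fcnb, from 1.05 ± 0.306 to 18.7 ± 5.91 CPM, had the largest fold of the members (17.6 times; adjusted p = 0.000141). Mpo rose 13.5 times (adjusted p = 0.000204), Ctsg 15.2 times (adjusted p = 0.000147) and Ms4a3 12.7 times (adjusted p = 0.000189). Their SE of 0.59 to 0.64 on the log2 scale is wider than the distance between the 6 folds, which run from 3.66 to 4.14. Ctsc had a log2 fold change of 0.17 ± 0.13 (adjusted p = 0.302) and Serpinb1a one of -0.21 ± 0.11 (adjusted p = 0.132). Serpinb1a passed as lower without IL-23-ear 3 (-0.26; adjusted p = 0.0232) and when the 2 groups were fitted alone (-0.26; adjusted p = 0.0283). The change was wide in this spleen: of 15159 genes tested, 32.3% were called higher and 27.6% lower. The ranges of the 6 genes lay wholly above control, which was so for 33.0% of all genes.

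The same 6 genes rose after imiquimod on the ear, by 7.09 to 8.48 times. Mpo went from 12.6 ± 4.86 CPM in control to 93.4 ± 39.2 CPM (n = 4), a log2 fold change of 2.89 ± 0.57 (edgeR adjusted p = 0.00629). Elane had the largest fold (8.48 times; adjusted p = 0.00499) and Ms4a3 the smallest (7.09 times; adjusted p = 0.00647). Log2 fold changes of Prtn3, Ctsg and Fcnb were 3.07 ± 0.60, 3.00 ± 0.59 and 3.05 ± 0.62, with adjusted p of 0.00629, 0.0058 and 0.0064. Here 14.3% of all genes were called higher and 6.98% lower. Ctsc was 217 ± 36.1 CPM against 170 ± 5.71 CPM in control (log2 fold change 0.35 ± 0.13; adjusted p = 0.0751), and Serpinb1a 141 ± 12.6 against 172 ± 16.5 CPM (log2 fold change -0.28 ± 0.11; adjusted p = 0.0936). With Ctsc, 7 members had ranges wholly above control, against 13.5% of all genes. Without imiquimod-ear 5 both passed, Ctsc as higher (0.40; adjusted p = 0.0252) and Serpinb1a as lower (-0.38; adjusted p = 0.0242), and the 6 genes were at 2.79 to 3.03. Ctsc also passed without imiquimod-dorsal 3 (0.35; adjusted p = 0.0379), and Serpinb1a without IL-23-ear 3 (-0.32; adjusted p = 0.0286) and with DESeq2 on all libraries (-0.31; adjusted p = 0.0498). Both imiquimod comparisons use the same 3 control spleens.

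After IL-23 none of the 8 genes passed with edgeR, DESeq2 or limma-voom, and 0 of 8 had an unadjusted p under 0.05. Mpo was 14.4 ± 12.4 CPM (n = 3), Elane 4.42 ± 3.39 CPM, Prtn3 4.40 ± 3.94 CPM and Ctsg 2.01 ± 1.64 CPM. Against control their log2 fold changes were 0.19 ± 0.56, 0.42 ± 0.58, 0.13 ± 0.62 and 0.10 ± 0.62, with edgeR adjusted p of 0.89 to 0.98. Fcnb had the largest difference, 0.82 ± 0.65 (adjusted p = 0.79), and Ms4a3 was at 0.26 ± 0.61 (adjusted p = 0.94). Ctsc (0.12 ± 0.14) and Serpinb1a (-0.08 ± 0.12) had adjusted p of 0.877 and 0.914. All 8 ranges overlapped those of control. IL-23-ear 2 was the highest library of its group for each of the 6 genes, and without it all 6 log2 fold changes turned negative, from -0.32 for Fcnb to -0.97 for Ms4a3. Over all genes edgeR called 0.0462% higher and 0.00660% lower, 8 genes in all, with 1305 at an unadjusted p under 0.05. DESeq2 called 133 and limma-voom 14.

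**Figure D2:**
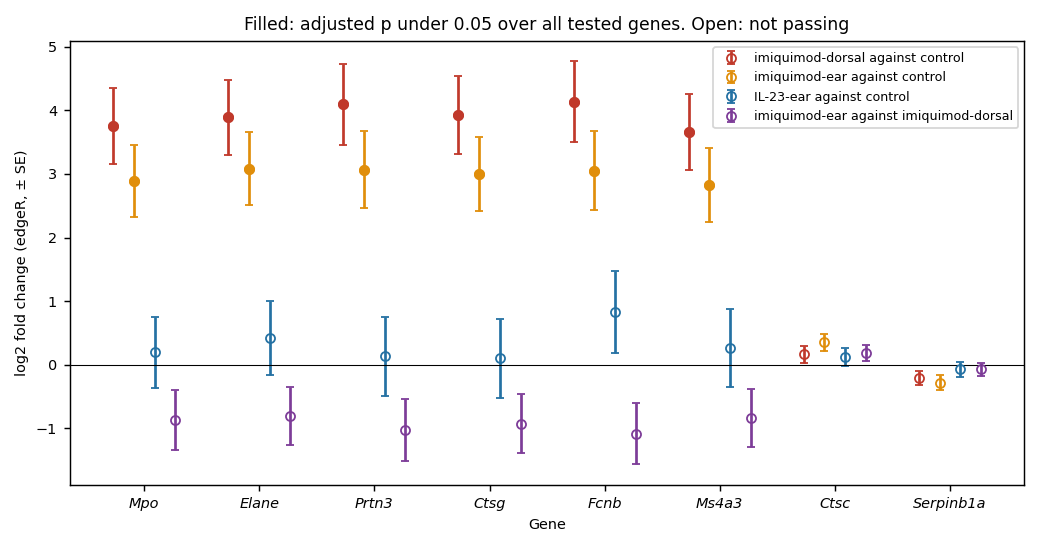
Log2 fold change with its SE for each of the 8 genes in 4 comparisons, which are each treated group against control and imiquimod-ear against imiquimod-dorsal. Filled symbols have an edgeR adjusted p under 0.05. The 6 genes lie at 3.66 to 4.14 for the back and 2.83 to 3.08 for the ear, while Ctsc and Serpinb1a lie within 0.35 of 0.

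The difference between imiquimod on the ear and on the back was tested directly, and none of the 8 genes passed in edgeR, with 1 at an unadjusted p under 0.05 (Fcnb) and 0 of 8 called by DESeq2. The log2 fold change of ear against back was -0.87 ± 0.47 for Mpo, -0.81 ± 0.45 for Elane, -1.03 ± 0.49 for Prtn3 and -0.93 ± 0.47 for Ctsg (edgeR adjusted p of 0.102 to 0.164). Fcnb came nearest at -1.08 ± 0.48 (adjusted p = 0.0837), and Ms4a3 was at -0.84 ± 0.46 (adjusted p = 0.152). Ctsc and Serpinb1a were at 0.19 ± 0.12 and -0.07 ± 0.11. The ranges of the 6 genes nevertheless lay apart, with every ear library below every dorsal library, as was so for 23.1% of all genes. Between these groups 23.3% of all genes were called higher and 24.5% lower in the ear group. limma-voom called all 6 genes lower, from -0.92 (Elane; adjusted p = 0.034) to -1.17 (Prtn3; adjusted p = 0.0141). Mpo, at -0.98, had the largest limma-voom adjusted p of the 6 (0.0451). edgeR called 3 of them when IL-23-ear 2 was left out.

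Against the imiquimod groups, the IL-23-ear spleens were lower in the same 6 genes. Compared with imiquimod-ear, log2 fold changes ran from -2.23 ± 0.58 for Fcnb (edgeR adjusted p = 0.0233) to -2.94 ± 0.60 for Prtn3 (adjusted p = 0.00816). Mpo was at -2.70 ± 0.56 (adjusted p = 0.00929), Elane at -2.66 ± 0.55 (adjusted p = 0.00884), Ctsg at -2.90 ± 0.58 (adjusted p = 0.00723) and Ms4a3 at -2.57 ± 0.57 (adjusted p = 0.0107). In that comparison 10.2% of genes were called lower and 7.06% higher. Ranges lay apart for 5 of the 6, against 12.5% of all genes, the exception being Fcnb. Mpo, Fcnb and Ms4a3 lost the call when the 2 groups were fitted alone, with adjusted p of 0.0568, 0.0833 and 0.0579, and Fcnb also when IL-23-ear 1 (0.08), IL-23-ear 3 (0.102) or imiquimod-ear 1 (0.0554) was left out. Ms4a3 lost it without IL-23-ear 3 (0.0583). Compared with imiquimod-dorsal, the 6 genes were lower by log2 fold changes of -3.32 ± 0.60 (Fcnb; adjusted p = 0.000498) to -3.97 ± 0.63 (Prtn3; adjusted p = 0.000204). There 30.0% of all genes were called lower and 27.1% higher, and 31.7% had ranges wholly below, among them the 6. Ctsc and Serpinb1a passed in neither, but without IL-23-ear 3 Serpinb1a passed as higher in IL-23-ear than in imiquimod-ear (0.37; adjusted p = 0.0449) and than in imiquimod-dorsal spleens (0.31; adjusted p = 0.0197).

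The median log2 fold change over the 8 members was 3.82 for imiquimod-dorsal, 2.94 for imiquimod-ear and 0.16 for IL-23-ear against control. Over all 15159 genes it was -0.00067, 0.021 and 0.011.

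Levels were compared between the genes per kilobase of exon. In control spleens Serpinb1a was highest (61.7 ± 5.92 CPM per kb), then Ctsc (27.1 ± 0.913 CPM per kb). Far below came Mpo (3.67 ± 1.42 CPM per kb), Elane (3.30 ± 1.70), Prtn3 (2.30 ± 1.07), Ctsg (1.78 ± 0.824), Fcnb (0.734 ± 0.214) and Ms4a3 (0.576 ± 0.223), and these neighbours differed by less than their SD except for the step from Ctsg to Fcnb. In imiquimod-dorsal spleens Mpo (49.7 ± 9.05 CPM per kb) and Elane (49.4 ± 8.17) came near to Serpinb1a (53.5 ± 3.68). Prtn3 at 39.5 ± 4.90 CPM per kb stood above Ctsc at 30.4 ± 4.86 and Ctsg at 27.5 ± 3.22, and Fcnb and Ms4a3 remained lowest at 13.1 ± 4.14 and 7.40 ± 1.20. In imiquimod-ear spleens Serpinb1a (50.7 ± 4.54) was again highest. The mean of Ctsc (34.7 ± 5.77) exceeded those of Elane (28.2 ± 12.2) and Mpo (27.3 ± 11.4) by less than the SD of either. In imiquimod-ear 4 Ctsc (31.4 CPM per kb) was below both Elane (41.1) and Mpo (38.7). Prtn3, Ctsg, Fcnb and Ms4a3 were at 19.4, 14.4, 6.15 and 4.13 CPM per kb on average. In IL-23-ear spleens Elane (4.48 ± 3.44) and Mpo (4.21 ± 3.62) differed by less than their SD. Ctsc and Serpinb1a made up 93.5% ± 2.72 (SD) of the CPM of the 8 genes in control, 49.5% ± 6.45 in imiquimod-dorsal, 66.8% ± 11.8 in imiquimod-ear and 92.8% ± 5.27 in IL-23-ear spleens.

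The proportions of the 6 genes to each other varied much less than their summed level. Mpo made up 47.0% to 55.0% of their summed CPM in all 14 libraries, Prtn3 14.3% to 20.8% and Elane 10.4% to 18%. Ctsg held 6.46% to 8.66%, Fcnb 4.02% to 6.95% and Ms4a3 3.57% to 5.04%. The summed level itself ran from 12.4 CPM in IL-23-ear 1 to 426 CPM in imiquimod-dorsal 3. The log2 ratio to Mpo spanned 0.57 over the 14 libraries for Ctsg, 0.60 for Ms4a3, 0.76 for Prtn3, 0.90 for Fcnb and 0.99 for Elane, but 5.28 for Ctsc and 5.29 for Serpinb1a. For Prtn3 this ratio was -1.46 to -1.17 in imiquimod-dorsal libraries, above control (-1.82 to -1.49) and IL-23-ear (-1.93 to -1.64). For Elane it was -2.40 to -1.86 in control, below imiquimod-ear (-1.78 to -1.71) and IL-23-ear (-1.79 to -1.41). For Ctsg, Fcnb and Ms4a3 every treated range overlapped control. These ratios were not tested.

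**Figure D3:**
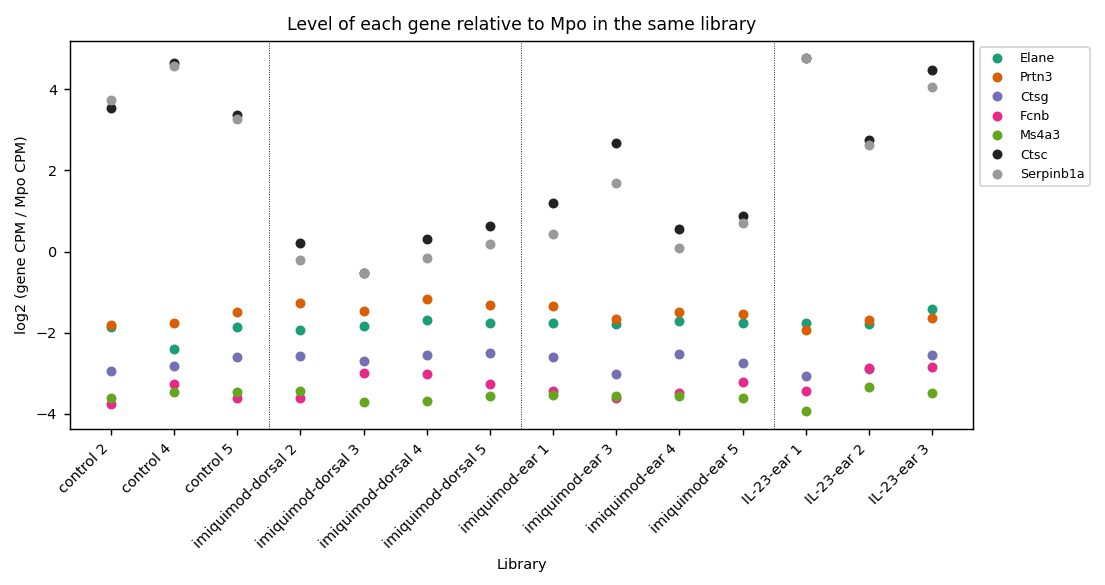
Log2 ratio of each gene's CPM to that of Mpo in every library, grouped by treatment. The ratios of Elane, Prtn3, Ctsg, Fcnb and Ms4a3 each stay within a band of 0.57 to 0.99, whereas those of Ctsc and Serpinb1a move by more than 5.

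The 6 genes also varied together between spleens of the same group. In each group 1 library was the highest for all 6, namely imiquimod-ear 4, imiquimod-dorsal 3, control 5 and IL-23-ear 2. Control 4, imiquimod-ear 3 and IL-23-ear 1 were the lowest of their groups for all 6, while in the dorsal group imiquimod-dorsal 5 was lowest for 4 of them. The spread was smallest in the dorsal group, with a coefficient of variation of 11.7% to 31.7%, and largest after IL-23, at 76.8% to 99.5%. Pearson's r of log2 CPM over the 14 libraries was 0.986 to 0.999 in the 15 pairs of these genes, and 0.923 to 0.990 after each group's mean was taken out. For the 13 pairs that include Ctsc or Serpinb1a it was -0.436 to 0.276, and -0.383 to 0.318 after the group means were taken out. These values are descriptions over libraries that share depth and scaling, and the first of each pair holds the difference between the groups.

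Among genes outside the 8, the pattern most like their mean over the 14 libraries was that of F13a1, the A subunit of coagulation factor XIII, with r = 0.965 (0.859 after group means were taken out). This gene is also among the monocyte markers counted below. F13a1 rose by 2.02 ± 0.28 on the log2 scale in imiquimod-dorsal (edgeR adjusted p = 4.81e-05) and by 1.51 ± 0.28 in imiquimod-ear spleens (adjusted p = 0.00427). Next came Gipc1 (0.940), Prss34 and Ngp (both 0.933), 4930438A08Rik (0.931), S100a8 (0.926), S100a9 (0.925), Cebpe (0.923), Wfdc21 (0.920) and Ltf (0.919). Among these listed genes, Prss34, a basophil and mast cell protease, had the highest r after group means were taken out (0.967), and Gipc1 fell to 0.503 there. For each of the 6 genes that moved, the 3 nearest genes were others of the 6. The nearest genes to Ctsc were Hmgn3 (0.935), Igkv12-38 (0.928) and St8sia4 (0.913), and to Serpinb1a Marchf7 (0.904), Runx1 (0.873) and Add3 (0.860). Against the mean of all 8, Ctsc had r = 0.362 and Serpinb1a r = -0.321.

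Of 33 other genes of primary granules and promyelocytes, 9 rose, 9 fell and 15 did not pass after imiquimod on the back (median log2 fold change 0.00), and 10 rose, 1 fell and 22 did not pass after imiquimod on the ear (median 0.09). None of the 33 passed after IL-23 (median 0.10). Over all genes, 32.3% rose and 27.6% fell for the back, and 14.3% rose and 6.98% fell for the ear. Many of the list are lysosomal genes that most cells of the spleen use. The member nearest to the 8 in kind, Prss57, encodes neutrophil serine protease 4 and lies 95.3 kb from Elane. It was at 0.416, 0 and 0.984 CPM in control, 4.91, 5.25, 5.59 and 4.72 CPM in imiquimod-dorsal, 4.33, 1.03, 5.24 and 3.40 CPM in imiquimod-ear, and 0.313, 2.71 and 0.501 CPM in IL-23-ear spleens. It rose by 3.40 ± 0.91 on the log2 scale for the back (edgeR adjusted p = 0.00615) and by 2.86 ± 0.90 for the ear (adjusted p = 0.0399), and its lowest imiquimod-ear and highest IL-23-ear libraries were the same as those of the 6. Rab44, a large Rab GTPase of granule-bearing leukocytes, rose by 2.63 ± 0.38 (adjusted p = 5.44e-05) and 1.32 ± 0.37 (adjusted p = 0.0237), and Clec12a, a myeloid inhibitory lectin receptor, by 1.34 ± 0.17 (adjusted p = 1.83e-05) and 0.64 (adjusted p = 0.0162).

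Other genes of the list changed less or fell. Srgn, the serglycin core protein that packs granule proteases, fell slightly in imiquimod-dorsal spleens (-0.28 ± 0.06; edgeR adjusted p = 0.000755) and was at 0.06 in imiquimod-ear spleens (adjusted p = 0.491). Bpi, a bactericidal protein of human azurophil granules, had only 8, 14 and 7 counts in control and 0, 0, 0 and 2 counts in imiquimod-dorsal spleens, below the floor of 3 counts (adjusted p = 0.032). In the ear group the 3 smallest adjusted p belonged to Gusb (0.52 ± 0.11), a lysosomal glucuronidase, Calr (0.65 ± 0.15), the endoplasmic reticulum chaperone calreticulin, and Hax1 (0.46 ± 0.11), a mitochondrial survival factor of neutrophils.

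**Figure D4:**
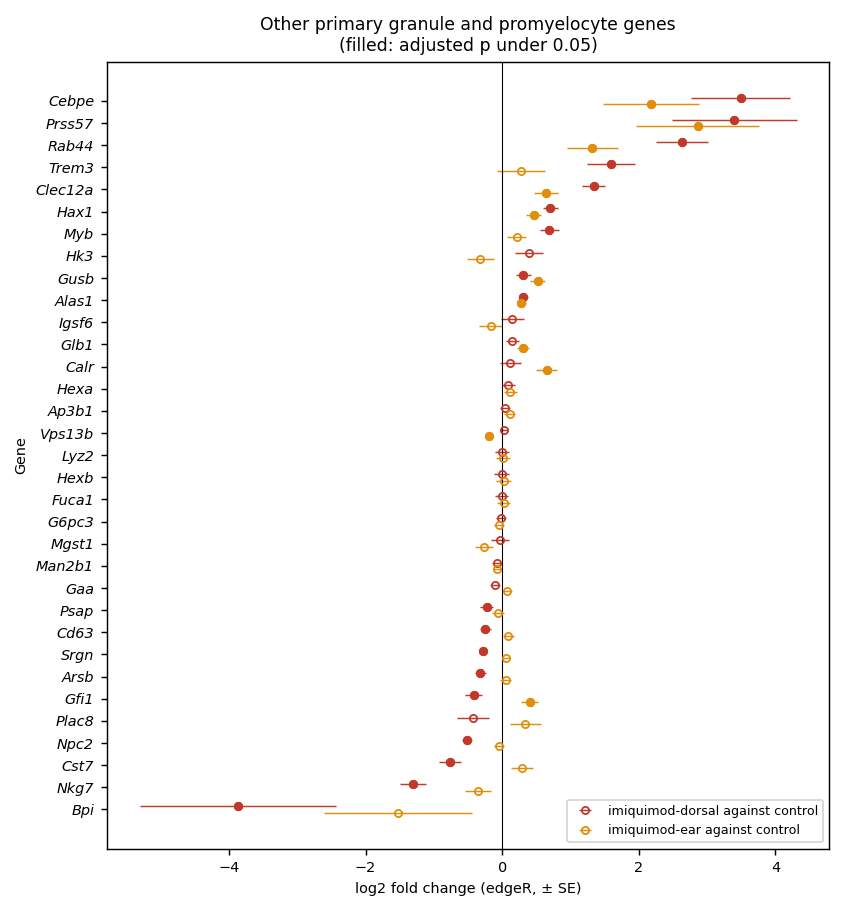
Log2 fold change with its SE of 33 other primary granule and promyelocyte genes in imiquimod-dorsal and imiquimod-ear against control spleens. Prss57, Cebpe and Rab44 stand out on the high side and Bpi, with few counts, on the low side, while most of the list lies near 0.

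Transcription factors and growth factor receptors of granulocytes were mixed. Of 31, 10 rose, 11 fell and 10 did not pass after imiquimod on the back, and 4 rose, none fell and 27 did not pass after imiquimod on the ear. Among all genes 32.3% rose and 27.6% fell for the back, and 14.3% rose and 6.98% fell for the ear. Cebpe, the C/EBP factor of late promyelocytes and myelocytes, was at 0.831, 0.256 and 0.673 CPM in control, 4.82, 10.7, 6.60 and 4.78 CPM in imiquimod-dorsal, 3.20, 0.517, 3.28 and 3.80 CPM in imiquimod-ear, and 0.391, 1.88 and 0.501 CPM in IL-23-ear spleens. It rose by 3.49 ± 0.73 (edgeR adjusted p = 0.00117) and 2.18 ± 0.70 (adjusted p = 0.0445) on the log2 scale, although imiquimod-ear 3 stayed in the control range. Gfi1, a repressor needed for neutrophil formation, fell after imiquimod on the back (-0.42 ± 0.12; adjusted p = 0.00669) and rose after imiquimod on the ear (0.40 ± 0.12; adjusted p = 0.0248). The direct difference between ear and back was 0.82 ± 0.11 (adjusted p = 4.34e-05). Myb, the progenitor factor that acts on Mpo and Elane, rose by 0.69 ± 0.14 for the back (adjusted p = 0.00084) and was at 0.21 for the ear (adjusted p = 0.301). Cebpa was at -0.24 and -0.14, and Irf8, which favours monocytes over neutrophils, at 0.12 and 0.30, with none passing. These factors are also used by lymphoid or other myeloid cells of the spleen.

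The partners of the proteases did not follow them as a group. Of 23 tested inhibitors of granule proteases, 4 rose, 13 fell and 6 did not pass after imiquimod on the back, and 1 rose, 2 fell and 20 did not pass after imiquimod on the ear. Wfdc17, of the whey acidic protein family of protease inhibitors, rose by 2.74 ± 0.21 (edgeR adjusted p = 7.56e-07) and 0.80 ± 0.20 (adjusted p = 0.0137), while Serpina3n fell by 1.47 for the back (adjusted p = 1.24e-06). Serpinb1b, the close copy of Serpinb1a, was at 0.300, 0.358, 0.287 and 0.382 CPM on average in the 4 groups (control, back, ear and IL-23). How reads with several matches were counted is not given in the sources used here, so the split between these 2 copies is uncertain. Of 12 other substrates of cathepsin C, 2 rose, 2 fell and 8 did not pass for the back, and 2 rose, 1 fell and 9 did not pass for the ear. Mcpt8, the basophil protease 14.6 kb from Ctsg, rose by 2.86 ± 0.32 (adjusted p = 5.97e-06) and 1.01 ± 0.30 (adjusted p = 0.0312). Of 13 other cathepsins, 6 rose and 3 fell for the back, with Ctsd at 0.93 ± 0.09, and 2 rose and 2 fell for the ear. None of these 3 lists had a gene that passed after IL-23. Beside these counts, 32.3% of all genes rose and 27.6% fell for the back, and 14.3% rose and 6.98% fell for the ear.

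Taken as lists, the genes around the members and their relatives did not share their size of change. Median log2 fold changes for the back were 0.26 for neighbours of Prtn3 and Elane, 0.06 for the Ctsg list and 0.40 for Ms4a genes. Single genes did rise: Prss57, a neighbour of Elane, came close to the 6 genes in both imiquimod groups (values above). Mcpt8, a neighbour of Ctsg, rose as well, by less for the ear than for the back. Of 22 tested neighbours of Prtn3 and Elane, all within 197 kb, 12 rose, 5 fell and 5 did not pass for the back, and 4 rose and 18 did not pass for the ear. For comparison, 32.3% of all genes rose and 27.6% fell for the back, and 14.3% rose and 6.98% fell for the ear. Bsg, a widely used membrane protein, rose by 2.10 ± 0.16 for the back, and Cfd, the complement factor 2.62 kb from Elane, was at -3.19 ± 1.43 (edgeR adjusted p = 0.073). Plppr3, which overlaps Prtn3 on the opposite strand, averaged 8.81, 7.86, 8.55 and 9.03 CPM over the 4 groups in the order above, and Wrnip1, which overlaps Serpinb1a, 57.2, 67.6, 65.4 and 63.1 CPM. Mpo is likewise overlapped by Gm11505 on the opposite strand, for which no level is given here. Without strand, reads in the shared stretches of these pairs cannot be assigned. Of 11 tested genes listed as neighbours of Ctsg, 2 rose and 3 fell for the back and 2 rose and 2 fell for the ear. That list also holds Stxbp6, which lies on chromosome 12 and not on chromosome 14 with Ctsg. Of 12 tested Ms4a genes 4 rose and 4 fell for the back, and none rose and 4 fell for the ear, with the T cell gene Ms4a4b falling by 2.76 for the back (adjusted p = 2.25e-06). The ficolin and lectin pathway fell where Fcnb rose: 6 of 7 tested genes were lower and none higher for the back (median -0.87), and 4 lower and none higher for the ear (median -0.51). Fcna, the macrophage ficolin, went from 198 ± 8.12 CPM to 123 ± 28.3 CPM in imiquimod-dorsal spleens (-0.68 ± 0.19; adjusted p = 0.00745), and was at -0.43 in imiquimod-ear spleens (adjusted p = 0.129).

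Genes of later granulocyte stages were counted in the same way. Of 24 secondary and tertiary granule genes, which are transcribed from the myelocyte stage on, 18 rose, 1 fell and 5 did not pass for the back (median 2.24), and 7 rose, 1 fell and 16 did not pass for the ear (median 0.63). Directly, 16 of the 24 were lower and none higher for the ear than for the back (median -1.42). In that comparison 24.5% of all genes were lower and 23.3% higher. Ltf, the lactoferrin gene, rose by 4.02 (edgeR adjusted p = 0.000806) and 2.24 (adjusted p = 0.0436), with a difference of ear from back of -1.78 (adjusted p = 0.0321). Of 22 mature neutrophil genes, 17 rose and 1 fell for the back (32.3% and 27.6% of all genes), 3 rose, 1 fell and 18 did not pass for the ear (14.3% and 6.98% of all genes), and 17 were lower and 1 higher for the ear than for the back. S100a8, a calcium-binding protein abundant in mature neutrophils, rose by 3.95 (adjusted p = 0.000307) and 2.22 (adjusted p = 0.025), and differed between ear and back by -1.73 ± 0.53 (adjusted p = 0.0184). None of these genes passed after IL-23. Of 10 genes of the NADPH oxidase and of extracellular traps, 4 rose and 1 fell for the back and 1 rose for the ear, which was Padi4, the histone-citrullinating enzyme (2.62 ± 0.25 and 0.78 ± 0.25; adjusted p = 2.49e-06 and 0.0401).

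The summed CPM of Ngp, Camp and Ltf, secondary granule genes, was 40.3, 28.8 and 70.4 in control, 524, 943, 651 and 511 in imiquimod-dorsal, 244, 62.5, 289 and 311 in imiquimod-ear, and 42.6, 236 and 45.7 in IL-23-ear spleens. The summed CPM of the 6 primary granule genes was 26.3, 12.9 and 32.1 in control, 346, 426, 329 and 293 in imiquimod-dorsal, 213, 74.7, 267 and 191 in imiquimod-ear, and 12.4, 56.6 and 16.4 in IL-23-ear spleens. Imiquimod-ear 3 and IL-23-ear 2 stood apart from their groups in both sums. The log2 ratio of the primary to the secondary sum was -1.16 to -0.62 in control, -1.15 to -0.60 in imiquimod-dorsal, -0.70 to 0.26 in imiquimod-ear and -2.06 to -1.48 in IL-23-ear libraries. Against S100a8 it was 0.17 to 1.20, 0.56 to 1.10, 1.28 to 2.14 and -0.12 to 0.44 in the same order. On both scales the highest ratios were in imiquimod-ear and the lowest in IL-23-ear spleens. These ratios were chosen after the values were seen and were not tested.

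**Figure D5:**
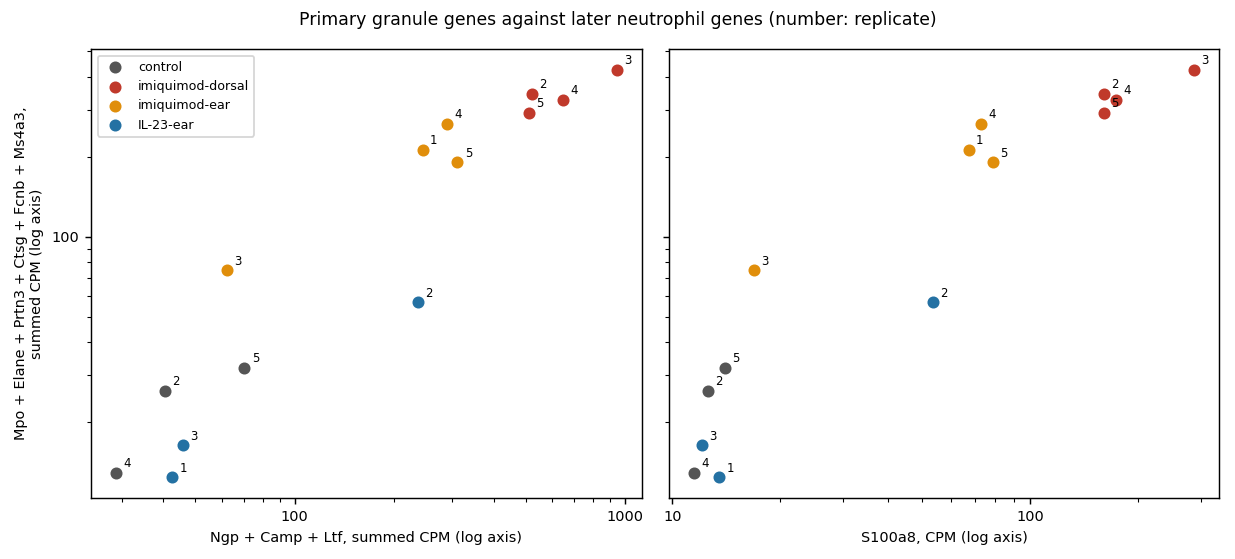
Summed CPM of the 6 primary granule genes in each library against the summed CPM of Ngp, Camp and Ltf, and against the CPM of S100a8, on log axes, with replicate numbers beside the points. The log2 ratio of the primary sum to that of Ngp, Camp and Ltf is highest in an imiquimod-ear library (0.26) and lowest in an IL-23-ear library (-2.06), while imiquimod-ear 5 (-0.70) lies within the control range.

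Markers of other cells of the spleen were counted beside the 6 genes. The shares over all genes were 32.3% higher and 27.6% lower for the back, and 14.3% higher and 6.98% lower for the ear. In IL-23-ear against imiquimod-ear spleens, 10.2% of all genes were lower. Of 16 monocyte markers, 7 rose and 1 fell for the back and 2 rose and 2 fell for the ear. Their summed level was 1160 to 1250 CPM in control, 1410 to 1600 in imiquimod-dorsal, 1090 to 1300 in imiquimod-ear and 1200 to 1210 in IL-23-ear libraries. Basophil and mast cell markers (14) summed to 66.6 to 87.3, 79.4 to 110, 53.0 to 75.1 and 69.7 to 90.0 CPM in the same order, with 4 higher and 1 lower for the back and 1 higher for the ear. The cytokine gene Il4 was the 1 marker of these 14 with 0 counts in a library, and only in 1 library. Eosinophil markers summed to 70.7 to 95.4, 50.1 to 76.9, 45.5 to 83.7 and 65.6 to 75.8 CPM, and the granule genes Epx, Ear1 and Ear6 had 0 counts in 8, 9 and 8 of the 14 libraries. Of 14 stem and progenitor markers 2 rose and 9 fell for the back, and none rose and 1 fell for the ear. All 16 erythroid markers rose for the back, with a sum of 70900 to 118000 CPM against 9960 to 30700 CPM in control, and none passed for the ear (6360 to 43300 CPM). All 20 cell cycle genes rose in both imiquimod groups, and all 20 were lower in IL-23-ear than in imiquimod-ear spleens. They summed to 964 to 1810 CPM in control, 7900 to 10100 in imiquimod-dorsal, 1720 to 4350 in imiquimod-ear and 1040 to 1400 in IL-23-ear libraries. Their summed level was highest in its group in imiquimod-ear 3 (4350 CPM), the ear library with the least of the 6 genes. All 10 plasma cell markers rose for the ear, with a sum of 3240 to 4910 CPM against 1320 to 1590 CPM in control, and 1 rose, 2 fell and 7 did not pass for the back. All 12 T cell markers fell for the back, to 265 to 338 CPM from 1110 to 1600 CPM in control. The part of any of these cells in the levels of the 8 genes was not tested.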

How the data were processed

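RNA of 14 whole spleens was measured by poly(A) sequencing with paired reads of 150 bases, per the labels' protocols. The deposited table holds the authors' raw read counts per gene and library, as its whole numbers show. The submitters' processing notes name featureCounts 2.0.3, StringTie 2.2.1, HISAT2 2.2.1, fastp 0.23.2, DESeq2 1.38.3 and build GRCm39 without roles; the sources used here give neither the annotation nor the handling of reads with several matches. Among 22740 entries, 624 loci without a gene name, 0.484% to 0.674% of counts, were left out.

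Counts of the other 22116 entries were tested in 1 fit of all 14 libraries (10 residual degrees of freedom) with TMM scaling and the robust quasi-likelihood test of edgeR 4.0.16 (R 4.3.3). filterByExpr with a minimum count of 10 kept 15159 genes, all 8 members among them. Benjamini-Hochberg adjustment ran over all of these genes, and an adjusted p under 0.05 counts as passing. A count of 0 allows up to 3 counts, or 0.0745 to 0.106 CPM, which covers counting error only. The 18 replicate pairs all differed beyond sampling noise (chi-square divided by its degrees of freedom, 24.1 to 141). The fit was tested on simulated counts.

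The members and gene lists were chosen with earlier results of these data known. All 8 members are named in every comparison, with up to 3 genes of smallest adjusted p from a list with at least 3 calls, a fixed set of further genes, and those with the most similar pattern. Alternatives were DESeq2 1.42.0, limma-voom (limma 3.58.1), another scaling, other filters, leaving out 272 haemoglobin and immunoglobulin entries, fits of the 2 groups alone, a replicate block and leaving out each library. Promoter windows are from RefSeq on GRCm38.p6, and gene positions from GENCODE on GRCm39.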

Additional observations from a re-analysis of the deposited data

How the results depend on the processing

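The 6 genes that rose after imiquimod kept their direction and call in both imiquimod groups against control under every alternative run. Directions or calls did change in other comparisons and for Ctsc and Serpinb1a, also at large differences. In IL-23-ear against imiquimod-ear, Mpo lost its call at -2.69 with the 2 groups alone (edgeR adjusted p = 0.0568). For IL-23-ear against control, limma-voom turned the log2 fold changes of Mpo (-0.10), Prtn3 (-0.17), Ctsg (-0.15) and Ms4a3 (-0.18) negative, and leaving out 1 library gave ranges of -0.81 to 0.52 (Mpo), -0.42 to 0.76 (Elane), -0.92 to 0.50 (Prtn3), -0.81 to 0.47 (Ctsg), -0.32 to 1.23 (Fcnb), -0.97 to 0.67 (Ms4a3) and -0.18 to 0.0518 (Serpinb1a). Besides IL-23-ear 2, leaving out control 4 turned Mpo (-0.10), Prtn3 (-0.18), Ctsg (-0.20) and Ms4a3 (-0.01). Ctsc in IL-23-ear against imiquimod-dorsal ran from -0.15 to 0.0284.

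The number of members called for imiquimod-ear against imiquimod-dorsal was 0, but 6 with limma-voom, 2 with these 2 groups alone and 0 to 3 with 1 library left out. For IL-23-ear against imiquimod-ear it was 6, but 3 with the 2 groups alone and 5 to 6 with 1 library left out. Over all genes, imiquimod-ear against control gave 3219 calls, 1126 with the 2 groups alone, and 1066 (without control 4) to 4977 (without imiquimod-ear 5) with 1 library left out. IL-23-ear against control gave 8 calls, 133 with DESeq2, 14 with limma-voom, 15 with a minimum count of 50, 0 with RLE scaling, without a filter or with the 2 groups alone, and 0 to 12 with 1 library left out. IL-23-ear against imiquimod-ear gave 2623, 1247 with the 2 groups alone and 1101 to 4463 with 1 library left out. The cause was not tested. Serpinb1a passed as lower in imiquimod-dorsal with the 2 groups alone (-0.26; adjusted p = 0.0283).

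No sign of pairing by replicate number was seen: over 13 same-numbered pairs, deviations from the group means correlated at -0.241 to 0.183, and 1 exceeded 0.1. Pairs with other numbers ran from -0.231 to 0.218. In groups this small the check cannot exclude pairing. With the replicate block, 311 genes were called for imiquimod-ear against control, 0 for IL-23-ear against control and 1261 for IL-23-ear against imiquimod-ear, where 5 members passed and Fcnb did not (-2.44; adjusted p = 0.0659). Genes outside the 8 members are given under the main settings alone.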
